A study of Mus musculus with 33 samples.

Results

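The guide RNAs (gRNAs) described here are the most distal ones on the downstream side of mouse Zfp42 in a tiled Cas9 mutation screen. They are the gRNAs whose target interval has its midpoint in either of 2 windows of chromosome 8 (mm10): chr8:43180015-43180996, which lies in the Triml1 and Triml2 gene spans about 126 kb from the Zfp42 5′ end at 43307009, and chr8:43273009-43274029, which lies 33 to 34 kb from that end. The first window holds 142 gRNAs and the second 98, so 240 of the 3908 gRNAs of the Zfp42 library that target a position on the chromosome. The windows were set by position alone, and the clusters are described apart, as the Triml cluster and the intergenic cluster.

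The gRNAs were put into mouse embryonic stem cells in which GFP replaces sequence at the Zfp42 transcription start, and the cells were separated by GFP signal. Genomic DNA was sequenced from 3 populations with 4 replicates each, which are GFP-negative cells, GFP-medium cells and the unsorted bulk cells, 12 libraries in all. Every group shares the same reporter and a dummy guide at the ROSA26 locus, and every group was grown with serum, LIF, a GSK-3 inhibitor and UO126. The labels number the replicates of the line, but nothing in the sources used here says that they were separate cultures or clones, so p-values measure the spread between these libraries, which may be technical. How many cells or alleles carried the reporter, how many cells were collected in each gate, and where the GFP-medium gate was set are also not given in the sources used here.

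As background, Cas9 cuts the genome where a gRNA matches a target next to a short motif, the PAM, which for the commonly used enzyme is any base followed by GG, and repair of the cut leaves small insertions and deletions. In a screen of this kind a gRNA that becomes more frequent among cells that lost GFP marks a position whose mutation can lower the reporter. Zfp42, also called Rex1, encodes a zinc-finger protein that is a widely used marker of pluripotent stem cells. Triml1 and Triml2 encode members of the tripartite motif-like family, named for their likeness to TRIM proteins, many of which are ubiquitin ligases.

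In RefSeq's annotation of GRCm38.p6, the assembly of mm10, Triml1 (gene ID 244448) spans chr8:43129806-43180494, Triml2 (gene ID 622117) spans chr8:43180463-43193884, and Zfp42 (gene ID 22702) spans chr8:43295067-43307009. The 2 Triml spans overlap at their ends inside the first window. Of the 142 gRNAs of the Triml cluster, 53 had their midpoint in the Triml1 span alone, 9 in both spans and 80 in the Triml2 span alone. Whether a target lies in an exon or an intron was not analysed here. The gene table lists no gene at the second window.

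The targets around the Triml2 start show which gRNAs could be measured at all. RefSeq's promoter sequence of Triml2 covers chr8:43180286-43180585 on the plus strand, and 38 gRNAs of the Triml cluster lie inside it. The start that the sequence is built on is 43180536, which lies inside the gene span given above and not at its first base, 43180463. A PAM stood at the end of all 38 targets when the deposited starts and ends were both read as counted from 0, and at 5 of 38 when they were read as deposited. The same reading placed a PAM at all 56 targets in RefSeq's Zfp42 promoter sequence, against 23 as deposited. Below, gRNAs keep the interval the file gives them, and the printed target starts and ends 1 base later. The 12 targets whose gRNA had counts are printed first, 5′ to 3′ on their own strand, since the values that follow rest on gRNAs of this kind. The first base of the target and the 3 PAM bases are in capitals.
chr8:43180290-43180311, plus strand: GggcctgagatcacacccaAGG
chr8:43180323-43180345, minus strand: GaccttggctgaaaactcttCGG
chr8:43180386-43180407, plus strand: GtaaattaacctacctaggAGG
chr8:43180399-43180421, minus strand: GtttcctggccccacctcctAGG
chr8:43180438-43180460, plus strand: GaagccacttctgctgcttcCGG
chr8:43180442-43180463, minus strand: GgtccggaagcagcagaagTGG
chr8:43180457-43180478, minus strand: GgattggtccggattggtcCGG
chr8:43180459-43180480, plus strand: GgaccaatccggaccaatcCGG
chr8:43180477-43180499, minus strand: GccatttcgacctttattacCGG
chr8:43180480-43180502, plus strand: GtaataaaggtcgaaatggcCGG
chr8:43180533-43180555, plus strand: GaccttcgtactgaagtctcTGG
chr8:43180535-43180557, minus strand: GaccagagacttcagtacgaAGG
These 4 targets in the same promoter window had no count in any of the 12 libraries, although each starts within a few bases of a counted one.
chr8:43180321-43180343, plus strand: TaccgaagagttttcagccaAGG
chr8:43180388-43180410, plus strand: AaattaacctacctaggaggTGG
chr8:43180462-43180484, minus strand: AttaccggattggtccggatTGG
chr8:43180476-43180498, plus strand: TccggtaataaaggtcgaaaTGG

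All 12 counted targets in the Triml2 promoter window began with G, 6 on each strand, and 5 of them had 19 target bases before the PAM and 7 had 20. The 22 targets that were never counted and have a PAM on 1 strand began with A, C or T, 11 on each strand, and none had G as its second base. The other 4 uncounted entries are 2 positions that the table lists more than once, with a PAM readable on both strands. The Zfp42 promoter window showed the same division: 33 of 33 counted targets began with G, and none of the 20 uncounted targets with a PAM on 1 strand did. The sources used here do not say how the gRNA sequences were designed or matched to reads, and a part of those steps in the uncounted entries was not tested.

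This division by sequence went with the width of the listed interval. In the Triml cluster 70 of 142 gRNAs (49.3%) had a count in any library and 72 had none, and in the intergenic cluster 38 of 98 (38.8%) had a count and 60 had none. Elsewhere in the positioned library, 1601 of 3668 gRNAs (43.6%) were counted. All 31 gRNAs of the Triml cluster with a 22-base interval were counted, against 39 of 111 with a 23-base interval, and in the intergenic cluster it was 13 of 13 against 25 of 85. Values below therefore describe the 70 and 38 counted gRNAs, and every one of them was counted in bulk cells, 59 and 27 of them in all 4 bulk libraries.

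Library totals were 252023 to 487732 counts in GFP-negative cells, 121455 to 268197 in GFP-medium cells and 39096 to 82959 in bulk cells. The 10 gRNAs against GFP itself made up 23.4 ± 5.74% of counts in GFP-negative cells, 0.384 ± 0.391% in GFP-medium cells and 0.589 ± 0.198% in bulk cells (SD, n = 4 each). Far fewer gRNAs had a count in the deeper sorted libraries: 335 to 540 in GFP-negative cells and 475 to 957 in GFP-medium cells, against 1598 to 1689 in bulk cells. A placeholder entry took 22.5% and 23.5% of the counts of bulk replicates 3 and 4, against 1.22% and 1.09% in bulk replicates 1 and 2, and is left out of all totals. Shares are relative, so a share falls when other gRNAs of the same library take more of the counts, and PCR counts without molecular identifiers are not independent molecules. Fewer cells carrying a gRNA and fewer amplified copies per cell cannot be told apart.

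The Triml cluster as a whole took a smaller share of counts in both sorted populations than in bulk cells. Its gRNAs took 2.35%, 1.39%, 0.201% and 0.0682% of the counts of GFP-negative replicates 1 to 4. In GFP-medium cells they took 2.89%, 2.13%, 1.37% and 0.564%, and in bulk cells 4.77%, 4.49%, 4.38% and 4.61%. Every sorted library lay below every bulk library, while the 2 sorted populations overlapped. The means were 1.0 ± 1.08% in GFP-negative cells, 1.74 ± 0.999% in GFP-medium cells and 4.56 ± 0.164% in bulk cells (SD, n = 4 each), which are log2 ratios against bulk of -2.19 and -1.39. Without the counts of the gRNAs against GFP the first ratio was -1.80 and the second unchanged at -1.39. The sum is a description, and no test was made on it.

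The size of this difference went with the replicate number. In GFP-negative cells, replicates 3 and 4 held 508 and 172 counts of the cluster, against 6677 and 6764 in replicates 1 and 2. The log2 ratio of GFP-negative to bulk shares was -5.06 over replicates 3 and 4 alone and -1.31 over replicates 1 and 2 alone. Leaving out GFP-negative replicate 1 gave -3.05. In GFP-medium cells the log2 ratios to bulk were -2.21 over replicates 3 and 4 and -0.88 over replicates 1 and 2.

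What remained of the Triml cluster in sorted cells came from few gRNAs, and from different ones in each library. The counts fell on 15, 14, 12 and 6 gRNAs in GFP-negative replicates 1 to 4 and on 13, 35, 15 and 15 in GFP-medium replicates. In bulk libraries they fell on 70, 65, 64 and 70 of the 70 counted gRNAs. The 3 most frequent gRNAs held 99.1%, 94.6%, 86.4% and 97.7% of the cluster's counts in GFP-negative replicates 1 to 4. They held 86.6%, 67.5%, 66.3% and 82.7% in GFP-medium replicates and 12.7% to 17.0% in bulk replicates. The sorted libraries had more counts in total than the bulk libraries.

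The leading gRNA of each GFP-negative library was a different one. In GFP-negative replicate 1 it was chr8:43180237-43180258, with 3778 counts or 56.6% of the cluster, and in replicate 2 it was chr8:43180048-43180070, with 4706 counts or 69.6%. In replicate 3 it was chr8:43180162-43180183, with 277 counts or 54.5%, and in replicate 4 it was chr8:43180040-43180061, with 153 counts or 89.0%. All 4 lie in the Triml1 span alone. In GFP-medium cells chr8:43180323-43180345 led both replicate 1, with 4217 counts or 68.9%, and replicate 3, with 597 counts or 35.8%. GFP-medium replicate 2 was led by chr8:43180810-43180832, with 2030 counts or 35.5%, and replicate 4 by chr8:43180187-43180208, with 517 counts or 61.7%.

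No counted gRNA of the Triml cluster had a count in all 4 GFP-negative or in all 4 GFP-medium libraries, which was uncommon elsewhere too: 86 of 1601 (5.37%) and 189 of 1601 (11.8%) counted gRNAs of the rest of the library did. Of the 70, 38 were at 0 in all GFP-negative libraries, 20 were counted in 1, 9 in 2 and 3 in 3. In GFP-medium cells 23 had no count, 25 were counted in 1 library, 13 in 2 and 9 in 3. Absence was common elsewhere too. Of the 1601 counted gRNAs of the rest of the library, 719 were at 0 in all GFP-negative libraries and 409 in all GFP-medium libraries. Counts above every bulk library, in CPM (counts scaled to a common library total, without the placeholder), were seen for 6 gRNAs in 1 GFP-negative library and for none in 2 or more. In GFP-medium cells they were seen for 7 gRNAs in 1 library, for 4 in 2 libraries and for none in 3 or 4. The share of the whole library above bulk in 1 or 2 sorted libraries was not computed here. Whether these numbers are few or many was thus not tested. None of the 70 was thus above bulk throughout either sorted population. This was rare everywhere: of all 1718 gRNAs with a count, 0.931% were so in GFP-negative cells and 0.582% in GFP-medium cells. These shares include the 9 counted gRNAs against GFP.

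Fitted gRNA by gRNA, every call of the Triml cluster against bulk cells was toward a lower level in the sorted cells. The fit was edgeR's quasi-likelihood test on counts over all 12 libraries and all 1342 gRNAs that passed a filter on low counts, with adjusted p under 0.05 as the call. Its only term was the population, so calls ignore the replicate number except where a fit with that number as a block is named. Of the 70 counted gRNAs 57 passed the filter, 50 of them through their bulk counts alone, against 918 of all 1342. The filter thus favours gRNAs that are low in sorted cells, and more so here than over the library, so the shares called are a description and not on equal terms. In GFP-negative cells 40 of 57 (70.2%) were lower than in bulk cells and 0 were higher, against 44.6% lower and 0.596% higher of all gRNAs tested. None of the gRNAs that target a position on the chromosome was called higher, including 0 of 723 in the stretch that holds Zfp42. The 0.596% were thus gRNAs against GFP, and having 0 higher does not set the cluster apart. None of the 57 was higher at an unadjusted p of 0.05 either, against 11 of all 1342, and none by limma-voom. DESeq2 called none higher, but it gave no adjusted p to some gRNAs that were high in a single GFP-negative library. Among these were chr8:43180048-43180070 and chr8:43180237-43180258, so DESeq2 could not call them. The adjusted p of the 40 ran between 8.88e-06 and 0.0139, and 29 of them were at 0 in all GFP-negative libraries.

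The fitted log2 fold change of GFP-negative against bulk cells had a median of -8.33 over the 57 tested gRNAs and -4.06 over all tested gRNAs. A fitted fold change of a gRNA with no count depends on the fit's prior, so a bound from 3 counts per library is used for the gRNAs named here. Each bound sets the bulk mean against that level and takes counts as independent. In what follows, "at least" thus leaves out the spread between libraries. All 40 were also called with the replicate number as a block, which called 45, and DESeq2 called 36 of the 40 and limma-voom 17. In GFP-medium cells 19 of 57 (33.3%) were lower than in bulk cells and 0 higher, against 19.7% lower and 0.0% higher of all gRNAs tested, and 29 were lower with the replicate number as a block. Leaving out GFP-medium replicate 2 gave 31 lower, and replicates 3 and 4 alone gave 0. Lower in both sorted populations were 17 of 57 (29.8%), against 17.3% of all tested.

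Of the 70 counted gRNAs of the Triml cluster 17 had counts in bulk cells alone, and 10 of these passed the filter. The library share of such gRNAs was not computed here. With no sorted counts, these 10 passed through bulk counts alone and could be called lower or not at all. Their p-values are thus a description, as the shares called are. The 4 named below are those of largest fitted fold change. At chr8:43180847-43180869, in the Triml2 span, GFP-negative and GFP-medium cells had 0 counts in every library and bulk replicates had 80, 76, 46 and 53. Its level was at least 113-fold lower in GFP-negative than in bulk cells (edgeR adjusted p = 0.00436) and at least 65.0-fold lower in GFP-medium than in bulk cells (edgeR adjusted p = 0.0119). The bulk level was even across replicates, 1140 ± 193 CPM (SD, n = 4).
The others were less even in bulk cells. Their bounds use the bulk mean, and against the lowest bulk library they would be smaller. At chr8:43180753-43180774 that mean was 730 CPM and the lowest bulk library had 333 CPM. For chr8:43180753-43180774 bulk replicates had 106, 41, 20 and 13 counts, and the bounds were at least 72.2-fold lower in GFP-negative than in bulk cells (edgeR adjusted p = 0.00289) and at least 41.6-fold lower in GFP-medium than in bulk cells (0.00783). For chr8:43180767-43180789 they had 23, 104, 10 and 44 counts, with bounds of at least 73.2-fold lower (edgeR adjusted p = 0.00284) and at least 42.2-fold lower (0.00773). For chr8:43180457-43180478, at the Triml2 promoter and printed above, they had 62, 30, 10 and 13 counts, with bounds of at least 46.4-fold lower (edgeR adjusted p = 0.00108) and at least 26.7-fold lower (0.00284).

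Other gRNAs were missing from GFP-negative cells but present in some GFP-medium libraries. The target chr8:43180459-43180480, printed above, had 0 counts in all GFP-negative replicates, 285, 755, 1 and 0 in GFP-medium replicates and 64, 107, 44 and 44 in bulk replicates. It was at least 109-fold lower in GFP-negative than in bulk cells (edgeR adjusted p = 0.00792), while GFP-medium libraries lay both above and below the bulk ones (edgeR adjusted p = 0.884). For chr8:43180918-43180939 the counts were 0 in all GFP-negative replicates, 0, 143, 62 and 0 in GFP-medium replicates and 40, 120, 37 and 44 in bulk replicates, at least 99.8-fold lower in GFP-negative than in bulk cells (edgeR adjusted p = 0.00695). For chr8:43180679-43180700, with a single GFP-medium library at 19 counts and bulk replicates at 72, 145, 31 and 14, the bound was at least 97.1-fold lower (edgeR adjusted p = 0.00478). For chr8:43180805-43180827, with a single GFP-medium library at 61 counts and bulk replicates at 44, 131, 21 and 33, it was at least 88.6-fold lower (edgeR adjusted p = 0.00624).

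The gRNA with the most counts among the Triml2 promoter targets was chr8:43180323-43180345, whose target centre lies 201 bases before the start at 43180536. It had 1, 0, 17 and 0 counts in GFP-negative replicates, 4217, 3, 597 and 0 in GFP-medium replicates and 78, 82, 84 and 52 in bulk replicates. All GFP-negative libraries were below all bulk libraries, but the call missed the threshold (edgeR adjusted p = 0.0621) and passed it with the replicate number as a block (0.0127). In GFP-medium cells 2 libraries were above every bulk library and the other 2 below. GFP-negative against GFP-medium cells gave a log2 fold change of -9.05 (edgeR adjusted p = 0.0288), which was lost with the block (0.215).

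GFP-negative and GFP-medium cells were also set against each other directly. Of the 57 tested gRNAs, 15 (26.3%) were lower in GFP-negative than in GFP-medium cells and 2 (3.51%) were higher, against 21.9% and 3.65% of all tested. Of those 15, 9 had counts in a single GFP-medium library. The strongest by fitted fold was chr8:43180810-43180832, with 0 counts in all GFP-negative replicates, 0, 2030, 0 and 0 in GFP-medium replicates and 99, 37, 39 and 14 in bulk replicates (edgeR adjusted p = 0.0253). Likewise chr8:43180028-43180050 had 0 counts in GFP-negative cells and 277 counts in GFP-medium replicate 2 alone (edgeR adjusted p = 0.0253).
The 2 that were higher rested on GFP-negative replicate 2. They were chr8:43180811-43180833, with 981 counts there and 0 in all other sorted libraries (edgeR adjusted p = 0.0328), and chr8:43180930-43180951, with 28 counts there and 0 in all other sorted libraries (0.0359). With the replicate number as a block, 0 gRNAs were called in either direction. A fit with only the 2 sorted populations also called 0, but its filter let through 5 of the cluster's gRNAs, so most of the calls could not be repeated there. Leaving out GFP-negative replicate 1 gave 0 lower and 0 higher, GFP-medium replicate 2 gave 5 and 0, and GFP-negative replicate 4 gave 8 lower. Leaving out GFP-medium replicate 1 gave 1 higher, and leaving out GFP-negative replicate 2 or GFP-medium replicate 3 or 4 gave 0 higher.

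None of the gRNAs that were abundant in sorted cells was called higher there than in bulk cells. Among those counted in 3 libraries of each sorted population was chr8:43180237-43180259, with 905, 711, 0 and 3 counts in GFP-negative replicates, 397, 605, 0 and 9 in GFP-medium replicates and 102, 103, 63 and 54 in bulk replicates. In GFP-negative cells its mean was 1160 ± 1510 CPM, against 1410 ± 137 CPM in bulk cells (SD, n = 4 each; edgeR adjusted p = 0.926). In replicates 1 and 2 it was above the bulk mean, and in replicates 3 and 4 it was near 0 in both sorted populations.
Its neighbour chr8:43180237-43180258 had 3778, 6, 0 and 0 counts in GFP-negative replicates, 0, 20, 267 and 115 in GFP-medium replicates and 154, 126, 76 and 57 in bulk replicates. The 2 intervals start at the same base and differ by 1 base in length. Both were high in GFP-negative replicate 1 and both near 0 in GFP-negative replicates 3 and 4. In GFP-negative replicate 2 and in the GFP-medium replicates 1 of the 2 was high and the other far lower, except that both were below bulk levels in GFP-medium replicate 4.

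Other abundant members gave the same picture with other libraries. For chr8:43180048-43180070, GFP-negative replicates had 0, 4706, 1 and 0 counts and bulk replicates had 31, 67, 24 and 37 (edgeR adjusted p = 0.402). For chr8:43180279-43180301, GFP-negative replicates had 1936, 0, 0 and 0 counts and bulk replicates had 35, 72, 21 and 48 (edgeR adjusted p = 0.725). For chr8:43180162-43180183, GFP-negative replicates had 0, 1, 277 and 0 counts, GFP-medium replicates had 690, 16, 203 and 0, and bulk replicates had 63, 199, 47 and 55. Each was above every bulk library in a single sorted library or none, and at or near 0 in most of the others.
The 2 most frequent gRNAs of the cluster in bulk cells were at low levels in most sorted libraries. The highest bulk mean, 2260 ± 530 CPM, was at chr8:43180187-43180208, which averaged 30.8 ± 34.8 CPM in GFP-negative cells and 872 ± 1740 CPM in GFP-medium cells (SD, n = 4 each). The next, chr8:43180040-43180061, averaged 176 ± 291 CPM in GFP-negative, 89.9 ± 140 CPM in GFP-medium and 2130 ± 819 CPM in bulk cells, below every bulk library in every sorted one.
At chr8:43180844-43180866, GFP-medium replicate 2 had 1072 counts and the other GFP-medium replicates 5, 0 and 2, while bulk replicates had 76, 147, 79 and 66.

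Overlapping targets were also set side by side. Of the 70 counted gRNAs of the Triml cluster 67 overlap another, so they are not independent positions. There were 44 pairs whose intervals start within 5 bases of each other. Where a pair had a count in a library, both gRNAs had one in 5 of 43 cases in GFP-negative cells and 13 of 65 in GFP-medium cells, against 155 of 174 in bulk cells. These shares go with detection, since a GFP-negative library saw a mean of 16.8% of the counted gRNAs, a GFP-medium library 27.9% and a bulk library 96.1%. The pair chr8:43180810-43180832 and chr8:43180811-43180833, 1 base apart, had its 2030 and 981 counts in different populations of replicate number 2. The pair at chr8:43180457-43180478 and chr8:43180459-43180480 targets the opposite strands of the same stretch of the Triml2 promoter, the first absent from all sorted libraries and the second present in 3 GFP-medium libraries.

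Within the Triml cluster, the mean share in sorted cells was higher on the side in the Triml1 span than on the side in the Triml2 span. The 26 counted gRNAs in the Triml1 span alone took 2.34%, 1.13%, 0.167% and 0.0675% of GFP-negative libraries, means of 0.926 ± 1.06% in GFP-negative cells, 1.23 ± 1.06% in GFP-medium cells and 2.19 ± 0.0805% in bulk cells (SD, n = 4 each). The 40 in the Triml2 span alone took 0.00915%, 0.258%, 0.00553% and 0.000794% of GFP-negative libraries, means of 0.0682 ± 0.126%, 0.408 ± 0.613% and 2.04 ± 0.0799% in GFP-negative, GFP-medium and bulk cells. GFP-medium replicate 2 went the other way, with 0.519% on the Triml1 side and 1.32% on the Triml2 side, while the other GFP-medium replicates had 2.73%, 1.2% and 0.453% on the Triml1 side and 0.0255%, 0.171% and 0.111% on the Triml2 side. On the Triml1 side the log2 ratio to bulk was -1.24 for GFP-negative cells and -0.84 for GFP-medium cells. On the Triml2 side these ratios were -4.90 and -2.32.
The number of gRNAs seen followed the same order. On the Triml1 side GFP-negative libraries saw a mean of 25.0% of the counted gRNAs, GFP-medium libraries 42.3% and bulk libraries 97.1%, and on the Triml2 side 11.2%, 18.1% and 95.0%. Among tested gRNAs, 11 of 23 (47.8%) on the Triml1 side and 26 of 30 (86.7%) on the Triml2 side were lower in GFP-negative than in bulk cells. Over all gRNAs tested it was 44.6%, close to the Triml1 side. In GFP-medium cells it was 1 of 23 (4.35%) and 16 of 30 (53.3%), against 19.7% of all gRNAs tested. The split by gene span was made with values known, neighbours overlap, and no test of the difference between the sides was made.

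The intergenic cluster also took a smaller share of counts in both sorted populations than in bulk cells, with the lower mean in GFP-medium cells. Its gRNAs took 0.701%, 0.57%, 1.06% and 0.546% of the counts of GFP-negative replicates 1 to 4. In GFP-medium cells they took 0.0453%, 0.782%, 0.111% and 0.216%, and in bulk cells 1.78%, 1.73%, 2.05% and 1.94%. Every sorted library lay below every bulk library, and the 2 sorted populations overlapped through GFP-medium replicate 2. The means were 0.719 ± 0.237% in GFP-negative cells, 0.289 ± 0.336% in GFP-medium cells and 1.88 ± 0.148% in bulk cells (SD, n = 4 each), which are log2 ratios against bulk of -1.38 and -2.70. Leaving out GFP-medium replicate 2 took the second to -3.92. Without the gRNAs against GFP the first was -0.99. The GFP-negative replicates did not divide by number as they did in the Triml cluster: the log2 ratio to bulk was -1.31 over replicates 3 and 4 and -1.47 over replicates 1 and 2.

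Here too a few gRNAs carried the sorted libraries. The counts fell on 2, 10, 5 and 5 gRNAs in GFP-negative replicates 1 to 4, on 5, 16, 5 and 9 in GFP-medium replicates and on 36, 34, 36 and 32 of the 38 counted gRNAs in bulk replicates. The 3 most frequent gRNAs held 100%, 94.4%, 98.2% and 98.9% of the cluster's counts in GFP-negative replicates. They held 97.9%, 73.2%, 96.3% and 62.0% in GFP-medium replicates and 22.3% to 30.3% in bulk replicates. The whole cluster had 96 and 135 counts in GFP-medium replicates 1 and 3, so shares there rest on small numbers.

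As in the Triml cluster, each GFP-negative library had its own leading gRNA. They were chr8:43273148-43273170 in replicate 1, with 1008 counts or 50.6% of the cluster, and chr8:43273938-43273960 in replicate 2, with 1712 counts or 61.6%. In replicate 3 it was chr8:43273511-43273533, with 1512 counts or 56.3%, and in replicate 4 it was chr8:43273144-43273165, with 907 counts or 65.9%. Of the 38 counted gRNAs, 21 were at 0 in all GFP-negative libraries, 12 were counted in 1, 5 in 2 and none in more. In GFP-medium cells 16 had none, 11 were counted in 1 library, 9 in 2 and 2 in 3. Outside both clusters, 719 of 1601 counted gRNAs were at 0 in all GFP-negative libraries and 409 in all GFP-medium libraries.

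The gRNA with the clearest recurrence in GFP-negative cells was chr8:43273144-43273165. It had 983, 0, 0 and 907 counts in GFP-negative replicates, 0, 1, 0 and 42 in GFP-medium replicates and 141, 78, 45 and 51 in bulk replicates. It was the only counted gRNA of either cluster above every bulk library in 2 GFP-negative libraries, and it was at 0 in the other 2. How often this occurred over the whole library was not computed here. The means were 1760 ± 2040 CPM in GFP-negative cells, 71.6 ± 141 CPM in GFP-medium cells and 1360 ± 560 CPM in bulk cells (SD, n = 4 each), and the difference between GFP-negative and bulk cells was within the spread (edgeR adjusted p = 0.882). Its overlapping neighbour chr8:43273148-43273170 had 1008, 0, 0 and 0 counts in GFP-negative replicates, 0, 0, 0 and 54 in GFP-medium replicates and 41, 5, 4 and 13 in bulk replicates. Both were present in GFP-negative replicate 1, and replicate 4 had the first alone.

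Other high values stood in 1 GFP-negative library each. For chr8:43273938-43273960, GFP-negative replicates had 0, 1712, 0 and 0 counts, GFP-medium replicates 41, 90, 0 and 1 and bulk replicates 29, 69, 12 and 16. For chr8:43273942-43273963, which overlaps it, GFP-negative replicates had 0, 0, 842 and 0 counts, GFP-medium replicates 0, 8, 28 and 0 and bulk replicates 61, 83, 41 and 41. The pair was thus high in different GFP-negative libraries, and both gRNAs were present in every bulk library. For chr8:43273511-43273533, which had the highest bulk mean of the cluster at 1640 ± 651 CPM, GFP-negative replicates had 0, 0, 1512 and 3 counts, GFP-medium replicates 0, 345, 0 and 57 and bulk replicates 54, 144, 105 and 62.
In GFP-medium cells the leading gRNA was chr8:43273254-43273276 in replicates 1 and 4, with 50 and 75 counts, beside 84 and 0 in replicates 2 and 3, 0, 0, 0 and 293 in GFP-negative replicates and 40, 29, 32 and 17 in bulk replicates. GFP-medium replicate 2 was led by chr8:43273198-43273220 with 685 counts, where the same gRNA had 435 counts in GFP-negative replicate 2 and 0 in the other 6 sorted libraries. Another, chr8:43273223-43273245, had 299 counts in GFP-medium replicate 2, 476 in GFP-negative replicate 2 and 0 in the others. These 2 gRNAs were present in both sorted populations of the same replicate number and in neither population of any other.

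Calls by gRNA were fewer than in the Triml cluster. Of the 38 counted gRNAs 23 passed the filter, 22 of them through bulk counts alone. In GFP-negative cells 10 of 23 (43.5%) were lower than in bulk cells, close to the 44.6% lower of all gRNAs tested, and 15 were lower with the replicate number as a block. Called higher were 0, as in every other stretch of the library. None was higher at an unadjusted p of 0.05, nor by limma-voom. DESeq2 called none higher, but here too it gave no adjusted p to gRNAs high in a single GFP-negative library. Among these were chr8:43273511-43273533 and chr8:43273938-43273960, so DESeq2 could not call them. Leaving out GFP-negative replicate 2 gave 17 lower and GFP-negative replicate 4 gave 16. The median fitted log2 fold change was -3.53, against -4.06 over all tested gRNAs.
In GFP-medium cells 5 of 23 (21.7%) were lower than in bulk cells and 0 higher, against 19.7% of all tested, and 12 were lower with the replicate number as a block. Leaving out GFP-medium replicate 2, 3 or 4 gave 12, 9 and 10 lower, and leaving out GFP-negative replicate 1, 2, 3 or 4 gave 8, 8, 8 and 9. Replicates 3 and 4 alone gave 0. All 5 were among the 10 that were lower in GFP-negative cells, 21.7% of those tested against 17.3% of all tested.

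The intergenic gRNA with no count in any sorted library and a call in both comparisons was chr8:43273579-43273600. It too passed the filter through bulk counts alone, so it could be called lower or not at all. Bulk replicates had 21, 22, 33 and 50 counts, and it was at least 64.9-fold lower in GFP-negative than in bulk cells (edgeR adjusted p = 0.00208) and at least 37.4-fold lower in GFP-medium than in bulk cells (0.00589). The gRNA starting 1 base before it, chr8:43273578-43273600, had 9 counts in GFP-medium replicate 2 as its only sorted counts and 32, 88, 40 and 26 in bulk replicates, at least 77.6-fold lower in GFP-negative than in bulk cells (edgeR adjusted p = 0.00324). This pair fell together.
The bound furthest from bulk was at chr8:43273773-43273795, at least 102-fold lower in GFP-negative than in bulk cells (edgeR adjusted p = 0.00436), with 3, 0, 15 and 0 counts in GFP-medium replicates and 44, 48, 72 and 48 in bulk replicates. At chr8:43273266-43273287, with 0, 4, 0 and 21 counts in GFP-medium replicates and 45, 43, 23 and 28 in bulk replicates, the bound was at least 60.7-fold lower in GFP-negative than in bulk cells (edgeR adjusted p = 0.00272). The interval that starts 1 base before it, chr8:43273265-43273287, had 1 count in GFP-negative cells, 0, 1, 0 and 3 in GFP-medium replicates and 82, 98, 17 and 41 in bulk replicates (log2 fold change -8.81 in GFP-negative against bulk cells, edgeR adjusted p = 0.00621).

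The remaining called intergenic gRNAs were spread along the window. At chr8:43273128-43273149, which had 7 counts in GFP-medium replicate 2 alone and 10, 58, 41 and 20 in bulk replicates, the bound was at least 57.1-fold lower in GFP-negative than in bulk cells (edgeR adjusted p = 0.00183). At chr8:43273177-43273199, which had 1, 506, 0 and 0 counts in GFP-medium replicates and 27, 66, 23 and 16 in bulk replicates, it was at least 53.1-fold lower (edgeR adjusted p = 0.012). Another 3 had 1 count in all GFP-negative libraries together and none in GFP-medium cells.
These were chr8:43273103-43273124, with bulk counts of 17, 13, 15 and 13, chr8:43273815-43273837, with 82, 42, 58 and 19, and chr8:43273999-43274020, with 44, 6, 5 and 8. Against bulk, GFP-medium cells were at least 15.6-fold, 51.1-fold and 15.2-fold lower for them, in that order (edgeR adjusted p between 3.55e-04 and 0.00783).
Between the sorted populations 2 of the 23 (8.70%) were lower in GFP-negative than in GFP-medium cells and 0 higher, against 21.9% and 3.65% of all tested. They were chr8:43273177-43273199 (edgeR adjusted p = 0.0253) and chr8:43273266-43273287 (0.0309), and none was called with the replicate number as a block. With only the 2 sorted populations in the fit, 1 gRNA of the cluster passed the filter and 0 were called. Leaving out GFP-negative replicate 1 gave 0, GFP-negative replicate 2 gave 5, and GFP-negative replicate 3 or GFP-medium replicate 2 gave 1.

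A plain count of libraries needs no model and no filter on low counts. Among all 70 counted gRNAs of the Triml cluster, 52 (74.3%) were lower in every GFP-negative than in every bulk library and none was higher, against 51.5% and 0.931% of all 1718 gRNAs with a count. The 1718 include the 9 counted gRNAs against GFP, here and below. In GFP-medium cells it was 42 (60.0%) and none, against 40.1% and 0.582%. In the intergenic cluster 17 of 38 (44.7%) were lower in every GFP-negative library and 20 (52.6%) in every GFP-medium library, with none higher, so that here the GFP-medium count was the larger, unlike in the fit. No gRNA of either cluster separated the 2 sorted populations, against 1.22% lower and 0.873% higher of all gRNAs with a count.

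The lower shares of the Triml cluster in sorted cells were close to those of the 2 stretches of the library farthest upstream of Zfp42. Apart from the 2 clusters the library has 5 stretches separated by gaps of more than 500 bases. The 2 farthest on the upstream side, 45 to 49 kb and 57 to 58 kb from the Zfp42 5′ end, took 1.58 ± 0.487% and 0.454 ± 0.597% of counts in GFP-negative cells. They took 2.83 ± 1.28% and 0.659 ± 0.782% in GFP-medium cells and 8.0 ± 0.329% and 1.92 ± 0.0825% in bulk cells (SD, n = 4 each). Their log2 ratios of GFP-negative to bulk shares were -2.34 and -2.08, beside -2.19 for the Triml cluster and -1.38 for the intergenic cluster. For GFP-medium to bulk they were -1.50 and -1.55, beside -1.39 and -2.70. The 2 nearer upstream stretches, centred 14.9 and 23.9 kb from the 5′ end, had log2 ratios of -1.19 and -1.67 for GFP-negative to bulk and 1.09 and -1.27 for GFP-medium to bulk. The stretch that holds Zfp42 had 0.16 and 0.20.

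In GFP-negative cells 71.1% and 71.4% of the tested gRNAs of those 2 upstream stretches were lower than in bulk cells, beside 70.2% of the Triml cluster and 43.5% of the intergenic cluster. The 2 nearer upstream stretches had 57.2% and 58.6%, and the stretch that holds Zfp42 had 30.4%. In GFP-medium cells the 2 farthest upstream stretches had 39.8% and 39.3% lower, beside 33.3% and 21.7%, the nearer ones 23.0% and 25.7%, and the stretch with Zfp42 had 87 of 723. These stretches were chosen with values known and share the bulk libraries, so the shares are given side by side and no difference between stretches was tested.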

How the data were processed

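Genomic DNA was amplified and sequenced for gRNAs from 12 libraries of the Zfp42 reporter line, of 33 samples in the series. The authors deposited whole-number counts per gRNA and library with mm10 intervals; mm10 is named in the submitters' processing notes, and the matching of reads to gRNAs was not given in the sources used here. Per the labels, columns were assigned to populations and replicate numbers.

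Members and lists were chosen with earlier results of these data known. The placeholder entry (0.000352% to 23.5% of a library) was left out. CPM scales counts to the remaining total of each library. edgeR 4.0.16 (R 4.3.3) fitted population over 12 libraries with TMM scaling, filterByExpr at a count minimum of 10 (55.5 CPM in 4 libraries, which 1342 gRNAs passed), and Benjamini-Hochberg adjustment over those at 0.05. Bounds set a gRNA at 0 to 3 counts per library and divide the bulk mean by that level. They cover the counting error of independent counts only, and no spread between libraries. Named gRNAs are, per cluster, all called ones (at most the 5 of largest fitted fold change per direction and comparison) and the 5 of highest mean CPM in each population; none had a count in all 4 libraries of a sorted population.

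Replicate numbers were taken to pair libraries: the labels number the replicates of the line, and deviations from population means correlated at 0.113 to 0.255 in all 12 same-number pairs and at -0.131 to -0.011 in 36 others. Deviations within a population sum to 0, so positive same-number values push the 36 others below 0. The 36 are thus not separate evidence of pairing. The main fit did not use this pairing, and calls with the replicate block are given beside it. Alternatives were other scalings, DESeq2 1.42.0, limma-voom (limma 3.58.1), no filter, fewer populations, the replicate block, and left-out libraries. The other libraries of the series were not used here.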

Additional observations from a re-analysis of the deposited data

Results flagged for a closer look

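In a group of 4 libraries, a value was looked at again where its gap to the next one, as a part of the group's range, passed Dixon's critical value. That value is meant to flag about 1 of 20 groups of normally distributed values. The counts here hold many values at 0, and most groups belong to gRNAs named for a call or a high mean. The rate of 1 in 20 therefore does not apply, and the number flagged cannot be set against it. Of 135 groups of values checked, 44 met this, 43 in sorted cells and 1 in bulk cells, and in 25 the other 3 libraries were at 0. No explanation of these values was tested.

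In the Triml cluster, GFP-negative replicate 1 stood apart with 13300 CPM at chr8:43180237-43180258 and 6810 CPM at chr8:43180279-43180301. GFP-negative replicate 2 stood apart with 9650 CPM at chr8:43180048-43180070, 2010 CPM at chr8:43180811-43180833, 492 CPM at chr8:43180844-43180866 and 57.4 CPM at chr8:43180930-43180951. GFP-negative replicate 3 had 1090 CPM at chr8:43180162-43180183 and 67.2 CPM at chr8:43180323-43180345, and GFP-negative replicate 4 had 607 CPM at chr8:43180040-43180061. The highest of these values thus stood in replicates 1 and 2.

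GFP-medium replicate 2 stood apart most often. It had counts on 35 gRNAs of the Triml cluster, against 13 to 15 in the other GFP-medium libraries. This was not particular to the cluster. Over the rest of the positioned library it also had counts on more gRNAs, 897 against 450 to 619. It had 7570 CPM at chr8:43180810-43180832, 4000 CPM at chr8:43180844-43180866, 1030 CPM at chr8:43180028-43180050, 298 CPM at chr8:43180040-43180061, 254 CPM at chr8:43180048-43180070, 70.8 CPM at chr8:43180679-43180700 and 26.1 CPM at chr8:43180279-43180301. GFP-medium replicate 4 had 3480 CPM at chr8:43180187-43180208 and 411 CPM at chr8:43180805-43180827. In bulk cells, replicate 1 had 1630 CPM at chr8:43180753-43180774, against 333 to 494 CPM in the other bulk libraries.

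In the intergenic cluster, GFP-negative replicate 1 had 3550 CPM at chr8:43273148-43273170. GFP-negative replicate 2 had 3510 CPM at chr8:43273938-43273960, 976 CPM at chr8:43273223-43273245, 892 CPM at chr8:43273198-43273220 and 139 CPM at chr8:43273255-43273276. GFP-negative replicate 3 had 5970 CPM at chr8:43273511-43273533 and 3330 CPM at chr8:43273942-43273963, and GFP-negative replicate 4 had 1160 CPM at chr8:43273254-43273276. A single count made up 2.05 CPM in GFP-negative replicate 2 at chr8:43273265-43273287, chr8:43273815-43273837 and chr8:43273999-43274020, and 3.95 CPM in GFP-negative replicate 3 at chr8:43273103-43273124.

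GFP-medium replicate 2 also stood apart in the intergenic cluster, with 2550 CPM at chr8:43273198-43273220, 1890 CPM at chr8:43273177-43273199, 1110 CPM at chr8:43273223-43273245, 198 CPM at chr8:43273255-43273276, 33.6 CPM at chr8:43273578-43273600 and 26.1 CPM at chr8:43273128-43273149. GFP-medium replicate 3 had 716 CPM at chr8:43273279-43273300, 231 CPM at chr8:43273942-43273963 and 124 CPM at chr8:43273773-43273795. GFP-medium replicate 4 had 364 CPM at chr8:43273148-43273170, 283 CPM at chr8:43273144-43273165 and 141 CPM at chr8:43273266-43273287.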

How the results depend on the processing

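Over 24 results, 390 alternative values were computed, of which 331 stayed near the value reported and 59 moved further. Only a log2 ratio of shares can reverse: 77 of these stayed near, 1 moved further and 0 reversed. Numbers of gRNAs have no direction to lose. Of the 331, 116 were numbers of gRNAs called higher, mostly 0 where the main fit also gave 0. Near was a wide range for the ratios: beside -2.19 for the Triml cluster in GFP-negative against bulk cells, both -3.05 and -1.31 counted as near. The cause of the 59 moves was not tested. A fit without the filter tests more gRNAs, and a fit on fewer libraries has fewer samples. A fit with only the 2 sorted populations tested 5 Triml and 1 intergenic gRNAs, so its counts of 0 say little. In the Triml cluster, gRNAs lower in GFP-negative than in bulk cells numbered 40, with 17 by limma-voom and 40 to 50 with 1 library left out. Those lower in GFP-medium than in bulk cells numbered 19, with 10 by limma-voom, 31 without the filter, 29 with the replicate block, 0 in replicates 3 and 4 alone and 15 to 31 with 1 library left out. Those lower in GFP-negative than in GFP-medium cells numbered 15, with 23 by limma-voom, 0 with the replicate block, with only the 2 populations, in replicates 1 and 2 alone or in replicates 3 and 4 alone, and 0 to 14 with 1 library left out. The 2 higher ones became 1 with total counts, with DESeq2 size factors, by DESeq2 or without the filter, 0 by limma-voom and in the 4 fits just named, and 0 to 2 with 1 library left out.

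In the intergenic cluster, gRNAs lower in GFP-negative than in bulk cells numbered 10, with 4 by limma-voom, 25 without the filter and 10 to 17 with 1 library left out, and 15 with the replicate block. Those lower in GFP-medium than in bulk cells numbered 5, with 1 by limma-voom, 20 without the filter, 12 with the replicate block, 0 in replicates 3 and 4 alone and 4 to 12 with 1 library left out. Those lower in GFP-negative than in GFP-medium cells numbered 2, with 5 by limma-voom, 0 in the same 4 fits and 0 to 5 with 1 library left out. The 0 higher ones became 1 with TMMwsp scaling. The replicate block changed no other call count by over 1.5 times.

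The log2 ratio of the Triml cluster's share in GFP-negative to bulk cells was -2.19, with -5.06 in replicates 3 and 4 alone and -3.05 to -1.80 with 1 library left out. With 3 or more counts needed, the Triml gRNAs seen averaged 6.50 in GFP-negative and 63.8 in bulk cells, against 11.8 and 67.2 with any count, and the intergenic gRNAs seen in bulk cells 29.2 against 34.5. Thinned to 39096 counts per library, GFP-negative libraries saw a mean of 6.29 Triml gRNAs. Bulk libraries are the shallowest, so low bulk counts limit which gRNAs could be tested.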
